A study of Xiphophorus maculatus x Xiphophorus hellerii with 32 samples.

Results

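Melanomas of fish titled 11935 were compared with melanomas of fish titled 11949. The members were chosen by title and tissue and comprised 3 tumors of 11935, from fish d, e and f, and 8 tumors of 11949, from fish a, b, c, d, f, g, h and l, or 11 of the 32 libraries in the series. All of these fish were BC1 hybrids of Xiphophorus maculatus and Xiphophorus hellerii that bore melanoma at 9 months of age, with the strain given as interspecies hybrid and no treatment named. Each tumor came from a different fish, so each group is a set of separate animals. The sources used here do not say what the title number stands for. A brood, a housing or collection batch and a set of inherited alleles cannot be told apart as its meaning. Skin of the 3 fish of 11935 and of 8 fish of 11949 was used beside the tumors. Fish d of 11949 gave tumor alone and fish q gave skin alone.

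Xiphophorus hybrid melanoma is a classical model of inherited cancer. The platyfish carries Xmrk, a duplicated and mutated epidermal growth factor receptor gene that signals without ligand and drives growth of pigment cells. A separate platyfish regulator locus restrains it, and backcrossing to the swordtail removes that locus from part of the offspring. Hybrids that keep it are known to develop mild pigment lesions, and those that lose it invasive melanoma, so tumors of a backcross can differ in their degree of malignancy. The labels do not give grade, size, body site or allele status for these tumors.

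Total counts were 5789725 to 6977222 in the tumors of 11935 and 2578877 to 5933067 in those of 11949, where 11949f was the shallowest and 11949c, with 4938279, the next. The 55 pairs of tumor libraries all differed far beyond sampling noise, with a lowest chi-square of 33.3 per degree of freedom. Levels below are CPM, counts scaled to a common library size, with TMM factors taken over 31 libraries. The table gives a gene symbol for 30 of its 20499 rows, and 21 of these had enough counts for a test in tumor. The others are known by transcript identifier only.

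Xmrk, the driver gene, was first looked at in every tumor. It is a near-identical copy of its parent receptor gene, so reads of the parent may have been counted with it. It stood at 130.2 CPM in 11935d, 201.8 CPM in 11935e and 536.5 CPM in 11935f. In the tumors of 11949 it ran from 345.4 CPM in 11949f through a median of 562.7 to 1164 CPM in 11949h. The tumors of 11935d and 11935e thus lay below all 8 tumors of 11949, while 11935f lay among them, and the groups overlapped. The means were 289.5 ± 217 CPM (SD, n = 3) and 633.8 ± 261 CPM (SD, n = 8), with a log2 fold change of -1.13 for 11935 over 11949 (SE 0.46). In the edgeR fit over all transcripts the unadjusted p was 0.0302 and the adjusted p 0.618, so Xmrk did not pass the threshold of 0.05. A two-sided exact permutation test of mean log2 CPM over the 165 ways to choose 3 of 11 tumors gave p = 0.0182 (0.0545 after Benjamini-Hochberg adjustment over the 3 values so tested), where the smallest possible value is 0.00606. The log2 fold change was -1.90 without 11935f, -0.78 without 11935d and -0.92 without 11935e.

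The skins of the same fish did not order this way. Xmrk stood at 73.5 CPM in the skin of 11935d, 71.2 CPM in 11935e and 29.7 CPM in 11935f, against 25.1 to 83.8 CPM (median 50.5) in the 8 skins of 11949. The skin log2 fold change was 0.03 (SE 0.40, edgeR unadjusted p = 0.938, adjusted p = 0.999). Within a fish, the tumor held 1.77 times the skin level in 11935d, 2.83 times in 11935e and 18.1 times in 11935f, and between 4.56 and 22.7 times (median 8.77) in 7 fish of 11949. The difference between title numbers in this contrast of tumor with skin was -1.17 on the log2 scale over all tumors and skins of both title numbers (edgeR adjusted p = 1, unadjusted 0.0666). Blocking on fish as a replicate block gave -1.31 (SE 0.70, edgeR adjusted p = 0.952, unadjusted 0.0853).

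**Figure D1:**
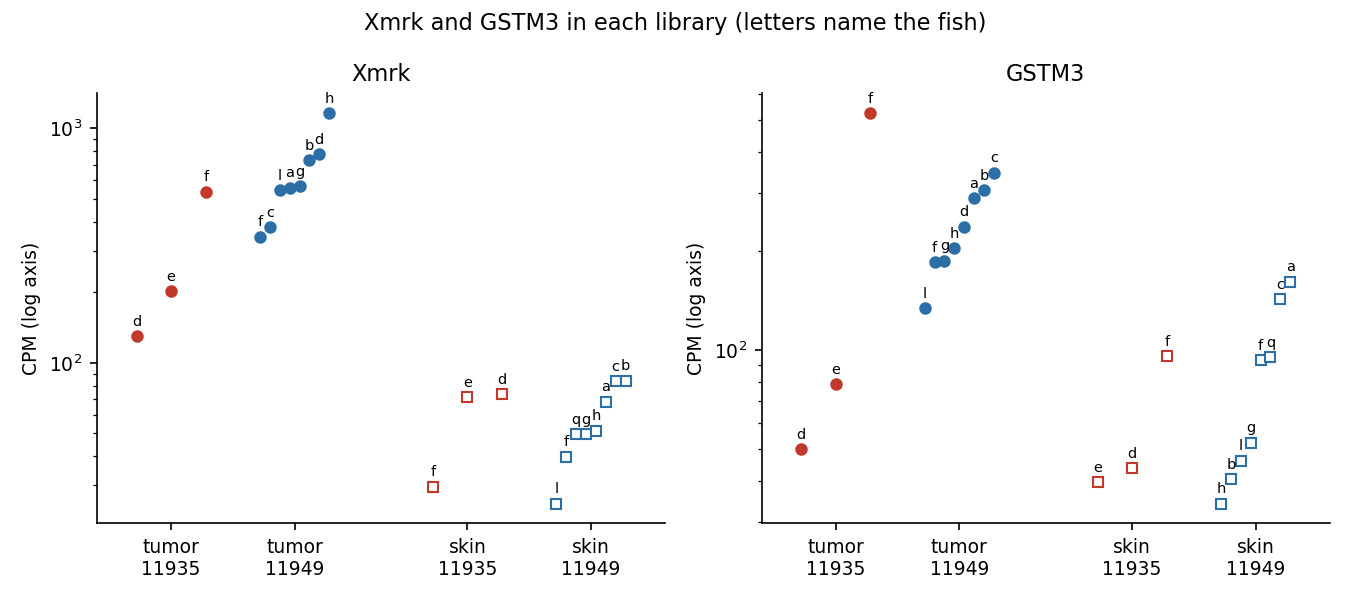
CPM of Xmrk (left) and GSTM3 (right) on log axes in each tumor (filled circles) and skin (open squares) of 11935 (red) and 11949 (blue), with letters naming the fish and points spread sideways in order of level. For both genes the tumors of 11935d and 11935e lie below all 8 tumors of 11949, while 11935f lies within them for Xmrk and above them for GSTM3.

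How far each sample carried the expression profile of melanoma was measured with transcripts chosen in other fish. In the 4 tumors and 5 skins of 11960 and 11963 that could be matched to a title, 50 transcripts with the largest excess in tumor and 50 with the largest excess in skin were taken as markers. Neither set contains Xmrk or any other row with a symbol. The summed level of the melanoma markers was 3170 CPM in 11935d, 7530 CPM in 11935e and 35510 CPM in 11935f. In the tumors of 11949 it ran from 19131 CPM in 11949f through a median of 26605 to 52864 CPM in 11949d. The tumors of 11935d and 11935e again fell outside the range of 11949, and 11935f again lay inside it. In skin the same sum was 404 to 903 CPM in 11935 and 470 to 994 CPM in 11949, so every tumor was above every skin.

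The mean log2 sum of the melanoma markers was -1.69 in 11935 relative to 11949 (two-sided exact permutation test, p = 0.0364, 0.0545 after adjustment over the 3 values). Of the 50 melanoma markers, 45 in 11935d and 38 in 11935e were below their lowest value in 11949, against 1 in 11935f. In 11935f, 8 were above their highest value in 11949. Over all transcripts tested, 11935d, 11935e and 11935f were the lowest of the 11 tumors for 10.3%, 8.26% and 6.42%. They were the highest of the 11 for 9.26%, 9% and 7.12%. Being the extreme of all 11 is a stricter count than lying outside 11949 alone, for which the share over all transcripts was not counted. In edgeR 0 of the 50 passed after adjustment, as did 0% of all transcripts. At an unadjusted p under 0.05, 16 of the 50 were lower and 0 higher in 11935, beside 3.75% and 3.57% of all transcripts tested. Their median log2 fold change was -0.90, against -0.01 over all transcripts. Without 11935f 43 were lower at that p and the median was -2.45. Without 11935d or without 11935e 3 were lower, with medians of -0.56 and -0.68. Without 11949f, the shallowest tumor, 17 were lower. Over all transcripts, in either direction, 1589 of 15848 had that p without 11935f. The same count was 797 of 15833 without 11935d, 658 of 15839 without 11935e and 1189 of 15425 without 11949f.

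The skin markers gave a smaller contrast, but the sets differ in strength. The 50 melanoma markers, from 196 candidates, were all at least 11.8-fold higher in tumor in the fish used to choose them. The 50 skin markers came from 62 candidates, with a least excess in skin of 2.56-fold. The sizes of the contrasts are therefore not comparable between the sets. The summed level of the skin markers was 18581 CPM in 11935d, 14512 CPM in 11935e and 16341 CPM in 11935f, against 9710 to 16173 CPM (median 12478) in the tumors of 11949. The mean log2 sum differed by 0.371 (two-sided exact permutation test, p = 0.0727, also 0.0727 after adjustment over the 3 values). Of the 50 skin markers, 14 in 11935d, 12 in 11935e and 5 in 11935f were above their highest value in 11949. Below their lowest were 0, 1 and 4. Over all transcripts, by the stricter count among all 11 tumors, these fish were highest for 9.26%, 9% and 7.12%. They were lowest for 10.3%, 8.26% and 6.42%. These shares are therefore not like for like with the marker counts. At an unadjusted edgeR p under 0.05, 3 were higher and 2 lower in 11935, beside 3.57% and 3.75% of all transcripts. By estimate 37 were above 0 and 13 below, with a median log2 fold change of 0.25. In skin itself the sum was 23558 to 62502 CPM over both title numbers, above every tumor. In whole tissue, fewer cells of a type and less RNA per cell cannot be told apart. With the melanoma marker sum as a covariate the log2 fold change of Xmrk was -0.25 (edgeR unadjusted p = 0.511). With the skin marker sum it was -0.89 (edgeR unadjusted p = 0.119). The melanoma marker sum was itself low in 11935d and 11935e, the tumors low in Xmrk. It was chosen as a covariate after the data were seen, and why the estimate moved was not tested.

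**Figure D2:**
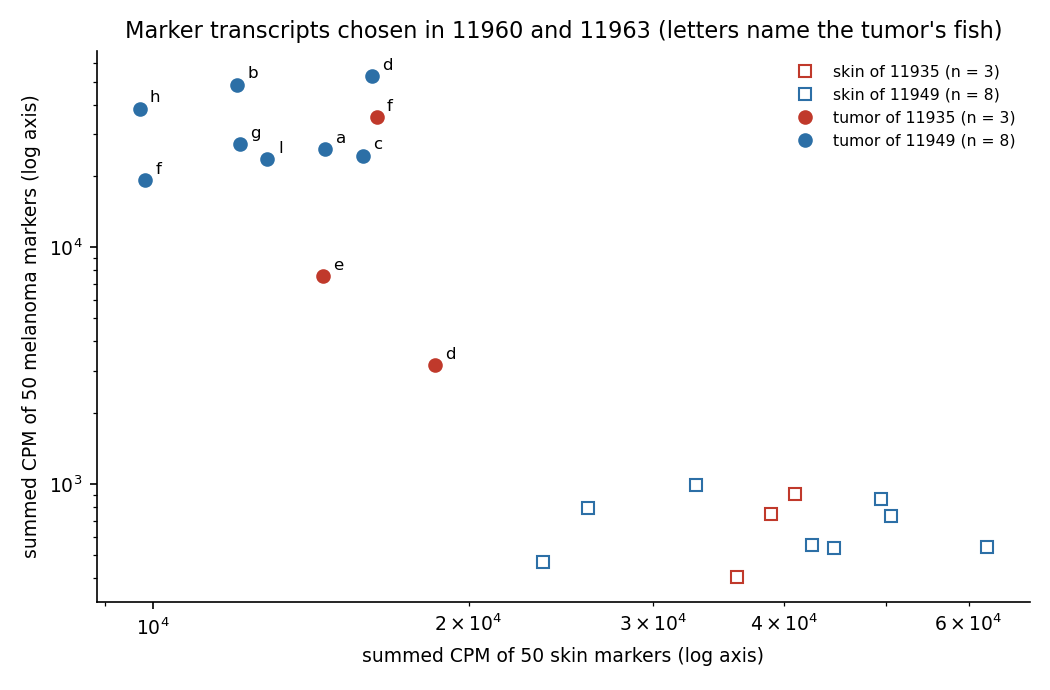
Summed CPM of 50 melanoma markers (vertical, log axis) against summed CPM of 50 skin markers (horizontal, log axis) in the tumors (filled circles, lettered by fish) and skins (open squares) of 11935 (red) and 11949 (blue). The tumors of 11935d (3170 CPM of melanoma markers) and 11935e (7530 CPM) lie between the skins and the other tumors on the vertical axis, where 11935f lies within the range of 11949. On the horizontal axis 11935d and 11935f (16341 CPM) lie above all tumors of 11949 and 11935e (14512 CPM) within their range.

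The 21 tested symbols were then read by role, and 0 of them passed in edgeR after adjustment, with adjusted p from 0.618 to 0.998. At an unadjusted p under 0.05 the count was 1, Xmrk, against 7.32% of all transcripts. Between the title numbers, 0 of the 21 had tumor levels without overlap, against 2.04% of all transcripts. Estimates were above 0 for 8 and below 0 for 13, with a median log2 fold change of -0.11, and 16 of the 21 were less than 0.5 from 0. In the tumors of 11949 alone the highest level of a symbol was typically 2.12 times its lowest (median over the 21).

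Of the list for receptor tyrosine kinase and MAP kinase signalling, 6 of 31 genes matched a tested symbol, 0 passed, and the median log2 fold change was -0.23. In this and the other lists, genes without a match may be among the rows known by identifier only. FGFR4, a fibroblast growth factor receptor, stood at 36.4, 20.8 and 19.5 CPM in 11935d, e and f and at 7.76 to 32.8 CPM (median 20.6) in 11949. Its groups overlapped (log2 fold change 0.30, SE 0.41, edgeR adjusted p = 0.915). Without 11935d the estimate was -0.06, and with the melanoma marker sum as a covariate it was -0.25. PRKCB, a protein kinase C isoform, was the most variable of these genes among the tumors of 11949, from 0.582 CPM in 11949c to 25.0 CPM in 11949h, with a median of 6.74. The low end of this range rests on few counts, 3 in 11949c and 10 in 11949d. The tumors of 11935 lay inside the range at 3.61, 8.60 and 4.54 CPM (log2 fold change -0.67, SE 0.87, edgeR adjusted p = 0.908). The direction turned to 1.50 with the skin marker sum as a covariate (edgeR unadjusted p = 0.0464, adjusted p = 0.430), and voom of limma gave -0.01. PRKCE_1of2, a copy of another protein kinase C gene, stood at 12.8, 17.8 and 28.9 CPM in 11935d, e and f and at 10.7 to 29.8 CPM in 11949 (-0.27, SE 0.35, edgeR adjusted p = 0.907).

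The stress-activated kinase genes spanned little. MAPK9, which encodes a Jun kinase, averaged 26.9 ± 1.92 CPM (SD, n = 3) and 30.9 ± 2.54 CPM (SD, n = 8), a log2 fold change of -0.19 (SE 0.22, edgeR adjusted p = 0.902). MAPK9 stood at 25.0 and 26.9 CPM in 11935d and f, below the lowest tumor of 11949, at 27.9 CPM. In 11935e MAPK9 lay inside the range of 11949, at 28.8 CPM. MAPK14_2of2, a copy of a p38 kinase gene, averaged 9.40 ± 1.80 and 9.08 ± 1.49 CPM (0.06, SE 0.28, edgeR adjusted p = 0.983). PMEPA1, an inhibitor of TGF-beta signalling, had 0, 10 and 20 counts in the 3 tumors of 11935 and 0 to 34 counts in 11949, too few to read a level. STAT4, a transcription factor activated by cytokines, was the sole member matched by symbol of 12 in the list for antigen presentation and interferon. It stood at 13.1, 7.85 and 13.3 CPM in 11935d, e and f. In 11949 it ran from 5.77 to 10.6 CPM with a median of 8.29, so 11935d and f were above all of 11949 and 11935e inside its range (log2 fold change 0.44, SE 0.31, edgeR adjusted p = 0.821).

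The list for glutathione and oxidative stress had 4 measured members of 16, with estimates below 0 for all 4 and 0 passing (median log2 fold change -0.19). Of these, OXR1 turned to 0.27 with the skin marker sum as a covariate and GSTM3 to 0.51 with the melanoma marker sum. GSTM3, a glutathione S-transferase that conjugates glutathione to reactive compounds, stood at 49.98 CPM in 11935d, 78.6 CPM in 11935e and 526 CPM in 11935f. The tumors of 11949 lay between, from 134 CPM in 11949l through a median of 220.5 to 347 CPM in 11949c. The 3 tumors of 11935 therefore spanned 10.5 times and lay on both sides of 11949, where the span was 2.59 times. The log2 fold change was -0.13 (SE 0.57, edgeR adjusted p = 0.981). It was -1.86 without 11935f (edgeR adjusted p = 0.205), 0.34 without 11935d and 0.29 without 11935e. In skin the same fish stood at 43.8, 39.6 and 95.9 CPM, within the 34.1 to 162 CPM of 11949.

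CYP1A1, an enzyme of xenobiotic metabolism, had 5.12, 4.98 and 1.51 CPM in the tumors of 11935d, e and f and 0.893 to 10.5 CPM in those of 11949 (log2 fold change -0.67, SE 0.75, edgeR adjusted p = 0.898). GPX6, of the glutathione peroxidase family, averaged 5.63 ± 1.14 and 6.61 ± 1.05 CPM (-0.22, SE 0.31, edgeR adjusted p = 0.918). OXR1, named for oxidation resistance, averaged 41.8 ± 6.61 and 47.3 ± 12.9 CPM (SD, n = 3 and 8, -0.17, SE 0.30, edgeR adjusted p = 0.938). All 3 overlapped between the title numbers.

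Among the other symbols the estimates farthest from 0 were those of CHD4_2of2, AP1M1 and CALR3_1of2. CHD4_2of2, a copy of the ATPase of the NuRD chromatin remodelling complex, stood at 67.3, 75.6 and 71.1 CPM in 11935d, e and f. In 11949 it ran from 24.8 CPM in 11949c to 79.3 CPM in 11949l with a median of 46.5, and 11949l alone exceeded the tumors of 11935 (log2 fold change 0.58, SE 0.32, edgeR unadjusted p = 0.0993, adjusted p = 0.750). AP1M1, a subunit of the clathrin adaptor AP-1, stood at 32.8, 32.9 and 47.0 CPM in 11935 and at 36.1 to 74.5 CPM (median 56.0) in 11949 (-0.54, SE 0.28, edgeR unadjusted p = 0.0729, adjusted p = 0.713). As with Xmrk, 11935d and 11935e lay below all of 11949 and 11935f did not.

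CALR3_1of2, a copy of a calreticulin-type chaperone gene of the endoplasmic reticulum, stood at 234, 195 and 222.3 CPM in 11935d, e and f. In 11949 it was 117 to 182 CPM in 7 tumors and 247 CPM in 11949c, the tumor that prevented separation of the groups (log2 fold change 0.49, SE 0.26, edgeR unadjusted p = 0.0838, adjusted p = 0.731). HSP90AB1, a cytosolic chaperone, was the other member matched by symbol of 10 in the list for chaperones and handling. It averaged 3976 ± 418 and 3977 ± 505 CPM (SD, n = 3 and 8, edgeR adjusted p = 0.998). Its log2 fold change was 0.01 with an SE of 0.20. Reads of the copies marked 1of2 or 2of2 may have been divided between near-identical genes.

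In the circadian list 3 of 10 genes matched a symbol. They were CRY2, a repressor of the clock, CSNK1A1, a casein kinase, and CUL4B, a ubiquitin ligase scaffold. Their log2 fold changes were 0.04 (SE 0.43), -0.11 (SE 0.24) and 0.01 (SE 0.24), with edgeR adjusted p of 0.992, 0.953 and 0.998. LDHB_1of2, a lactate dehydrogenase subunit copy, was the sole member matched by symbol of 11 in the list for glycolysis and hypoxia. It averaged 866 ± 38.7 and 909 ± 134 CPM (-0.06, SE 0.21, edgeR adjusted p = 0.973). NR2F6_1of2, a copy of an orphan nuclear receptor gene, averaged 8.00 ± 0.261 and 8.37 ± 0.842 CPM (-0.06, SE 0.26, edgeR adjusted p = 0.981). None of the 25 genes listed for pigment cells, the 19 for the cell cycle or the 8 lists of other cell types matched a symbol, so the labelled tissue was checked by Xmrk and the marker transcripts alone.

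**Figure D3:**
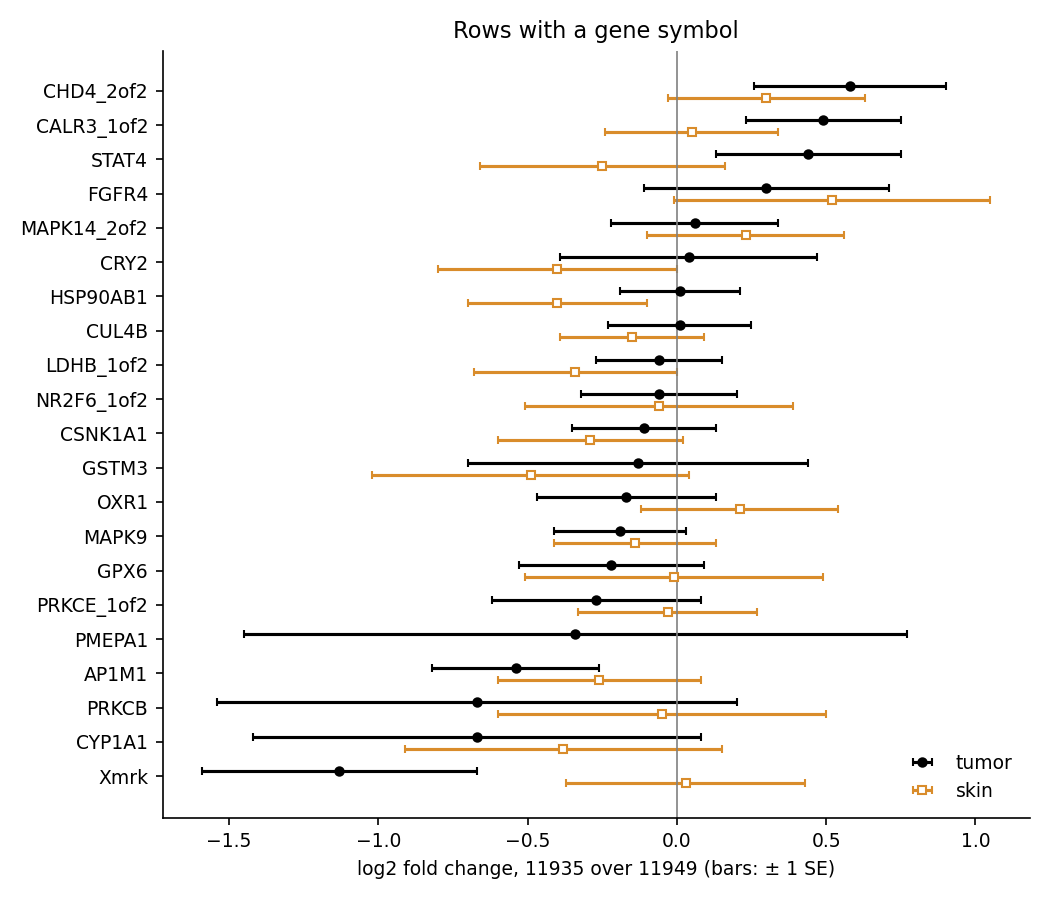
Log2 fold change of 11935 over 11949 with bars of 1 SE for the 21 rows with a symbol, in tumor (filled circles) and in skin (open squares; PMEPA1 was not tested in skin). Xmrk in tumor, at -1.13, is the estimate farthest from 0, and 16 of the tumor estimates are less than 0.5 from 0.

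The comparison was then taken over all 15514 transcripts tested in tumor. In edgeR 0 passed, with a smallest adjusted p of 0.318. At an unadjusted p under 0.05 there were 1136 (554 higher and 582 lower in 11935), where 775.7 would be met by chance. DESeq2 called 88 (0.567%), of which 24 (0.155%) were higher and 64 (0.413%) lower in 11935, and voom of limma called 0, with 1372 at an unadjusted p under 0.05. Of the 88, 87 also had an unadjusted edgeR p under 0.05 and 50 had no overlap between the groups. Over all transcripts these shares were 7.32% and 2.04%. The 88 were picked in the same tumors, so these counts are no independent support for them. None of the 88 carries a symbol, and in 7 of them a single tumor held more than 0.5 of the CPM summed over the 11. The share of all transcripts with such a tumor was not counted. By estimate alone 855 transcripts were more than 2-fold higher and 910 more than 2-fold lower in 11935, and 0 passed a test against a 2-fold change (glmTreat).

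Leaving out 11949l gave 2 edgeR calls after adjustment, and leaving out 11935d or 11935e gave 1 each. The unadjusted count also moved with single tumors of 11935. It was 797 without 11935d, 658 without 11935e and 1589 without 11935f, and 931 to 1337 without a tumor of 11949. The median SE of a log2 fold change was 0.478 and the median size of the fold change 0.369. Levels of a transcript spanned a median of 1.99 on the log2 scale within the 8 tumors of 11949, while group means differed by a median of 0.374. The difference of means exceeded the span within 11949 for 131 transcripts (0.844%). Of the variance of log2 CPM, 12.5% lay between the title numbers, where its 1 of 10 degrees of freedom takes 10% with no difference between groups.

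Tumors of the same title number were no more alike than tumors of different ones. The root mean square difference in log2 CPM had a median of 1.23 over the 3 pairs within 11935, 1.24 over the 28 pairs within 11949 and 1.24 over the 24 pairs between them. The tumors of 11935d and 11935e were nearest to each other, at 1.06. The tumor of 11935f was nearest to that of 11949g, at 1.10, and 11949l was nearest to 11935e, at 1.09. The first principal component held 30.6% of the variance and ran from -133 in 11949c to 71.3 in 11949l, with 11935 inside at 10.9 to 57.1. On the second, with 12.4%, 11935e (67.1) and 11935d (57.2) stood at one end and 11935f (-15.8) did not. The tumor of 11949c was the lowest of the 11 for 16.8% of transcripts and the highest for 17.5%, the largest shares of any tumor in the comparison.

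In skin, 0 of 15317 transcripts passed in edgeR between 11935 and 11949, and DESeq2 called 12. At an unadjusted p under 0.05 there were 554 (3.62%; 1.44% higher and 2.17% lower in 11935), where 765.85 would be met by chance. Whether the contrast of tumor with skin itself differed between the title numbers was tested as an interaction. In edgeR 0 of 16204 transcripts passed, and DESeq2 called 0. Neither fit paired the tumor and skin of a fish. At an unadjusted edgeR p under 0.05 there were 141 (0.87%; 0.222% higher and 0.648% lower in 11935). By chance 810.2 would be met, so this fit gave fewer small p than chance would, and why was not tested. In the block fit over 10 fish, which pairs the tissues, 0 of 16157 passed. There 765 (4.73%; 1.79% higher and 2.94% lower) had an unadjusted p under 0.05, where 807.85 would be met by chance. The excess of small p in tumor was thus not shown to be a property of tumor as opposed to skin.

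**Figure D4:**
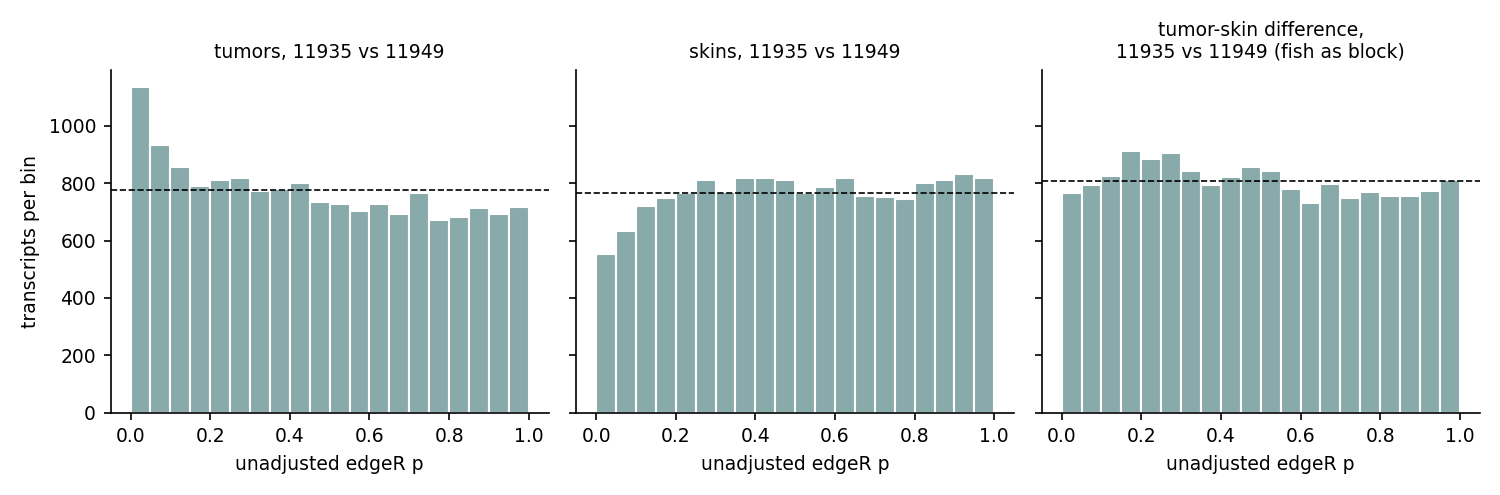
Number of transcripts per bin of 0.05 in unadjusted edgeR p for the comparison of tumors (left), of skins (middle) and for the difference in the contrast of tumor with skin with the fish as block (right). The dashed line is the mean bin. The lowest bin holds 1136 transcripts in tumor, above the line, 554 in skin and 765 for the contrast, both below it.

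By the rule for naming, 2 identifiers on each side were taken from 244 that averaged at least 10 CPM in the higher group and did not overlap between the tumor groups, 111 higher and 133 lower in 11935. Over all transcripts, with no minimum level, 0.948% were higher and 1.09% lower without overlap. Since they were ranked by p in this comparison, their tumor values are a description, as are contrasts of tumor with skin that use them. None of the 4 passed in edgeR after adjustment, and all passed in DESeq2. None is among the melanoma or skin markers. They have no gene name in the sources used here.

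ENSXMAT00000000100 stood at 133.2 CPM in the tumor of 11935d, 37.0 CPM in 11935e and 126.7 CPM in 11935f, against 21.2 to 35.4 CPM (median 23.5) in 11949. The log2 fold change was 1.98 (SE 0.33, edgeR unadjusted p = 4.1e-05, adjusted p = 0.318). It was 1.70 without 11935d, 1.78 without 11935f and 2.38 without 11935e (edgeR adjusted p = 0.0137 for the last). Fish 11935e was the closest to 11949. Leaving it out of a row that was chosen by its p can only widen the difference, so that p is no support. In skin 11935e was again the lowest of the 3, with 125.3, 31.3 and 157.8 CPM in d, e and f, and among the skins of 11949 fish q reached 133.5 CPM while the lowest stood at 12.5. The estimate in skin was 1.40 (SE 0.61, edgeR unadjusted p = 0.0383, adjusted p = 0.999).

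ENSXMAT00000017917 stood at 761.1 CPM in the tumor of 11935d, 33.7 CPM in 11935e and 112.3 CPM in 11935f, against 2.98 to 29.6 CPM (median 17.3) in 11949. The log2 fold change of 4.23 (SE 0.73, edgeR unadjusted p = 6.29e-05, adjusted p = 0.322) was 2.15 without 11935d. The skin of 11935d was also high, at 205.6 CPM, while the skins of 11935e and f, at 11.9 and 10.8 CPM, lay inside the 0.716 to 38.7 CPM of 11949.

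ENSXMAT00000002892 was low in every skin, at 0.549 to 3.82 CPM over both title numbers. In tumor it stood at 3.46 CPM in 11935d, 5.74 CPM in 11935e and 13.6 CPM in 11935f, against 19.7 to 70.4 CPM (median 56.8) in 11949. The 3 tumors of 11935 stand in the order of their melanoma marker sums, while those of 11949 do not: 11949f, with the lowest sum of the 8, stood at 61.4 CPM and 11949d, with the highest, at 46.6 CPM. The log2 fold change was -2.73 (SE 0.51, edgeR unadjusted p = 0.000145, adjusted p = 0.322). Tumor exceeded skin 2.18 to 24.8 times in the fish of 11935 and 18.4 to 78.7 times in those of 11949. In the block fit the title numbers differed by -2.18 in this contrast (SE 0.72, edgeR adjusted p = 0.952, unadjusted 0.0106). The block fit reused the tumor values by which this row was chosen, so its unadjusted p is no support.

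ENSXMAT00000013948 varied little among the tumors of 11935, at 5.42, 4.38 and 5.14 CPM in fish d, e and f, against 9.42 to 25.6 CPM (median 19.4) in 11949. The log2 fold change was -1.87 (SE 0.38, edgeR unadjusted p = 0.000275, adjusted p = 0.435), and it ranged from -1.97 to -1.71 over the alternatives. The skins showed a similar estimate of -1.62 (SE 0.54, edgeR unadjusted p = 0.00963, adjusted p = 0.999), with 3.49 to 6.04 CPM in 11935 and 4.37 to 29.2 CPM in 11949. The block fit gave a difference between the tissues of -0.32 (edgeR unadjusted p = 0.357). Tumor and skin come from largely the same fish, so skin is not an independent repeat of the tumor values.

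**Figure D5:**
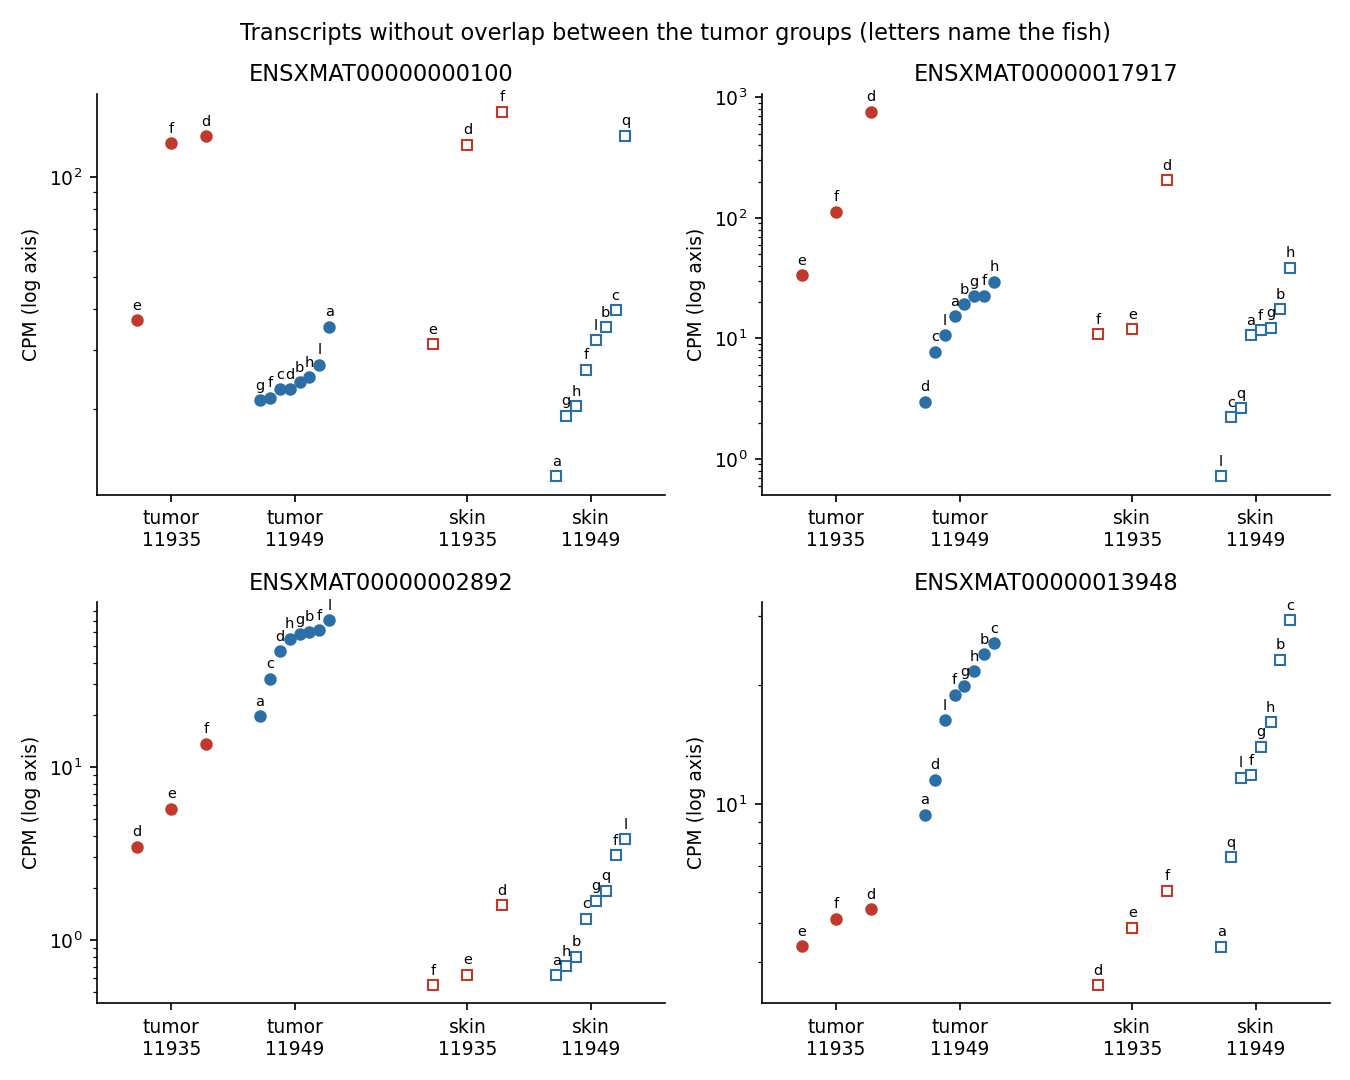
CPM on log axes of the 4 named identifiers in each tumor (filled circles) and skin (open squares) of 11935 (red) and 11949 (blue), with letters naming the fish and points spread sideways in order of level. In ENSXMAT00000000100 fish 11935d and 11935f are high in both tissues, while ENSXMAT00000002892 is at most 3.82 CPM in every skin.

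Presence and absence did not separate the tumor groups by a strict rule. A count of 0 in all 3 tumors of 11935 together with at least 10 counts in each tumor of 11949 was found for 0 transcripts, and the reverse for 0. Among the 88 transcripts called by DESeq2, 2 had a count of 0 in all 3 tumors of 11935. Absence from all tumors of 11949 was not counted among the 88. The share of all transcripts with a count of 0 in all 3 tumors of 11935 was not counted either. Of the 9 symbols with too few counts for a test, MAPK11, a p38 kinase gene, had 22 counts over the tumors of 11935 and 43 over those of 11949, and CCR6_1of2, a chemokine receptor copy, had 21 and 37. IGF1, an insulin-like growth factor, had 5 and 17, and CIDEA and FAM19A3 had 0 in both.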

How the data were processed

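RNA of skin and spontaneous melanoma was sequenced. The authors deposited raw counts per transcript model, whole numbers, with 1 column per library. Alignment was by GSNAP, per the submitters' processing notes. The sources used here name no genome build, counting program, annotation or strand setting. Columns were matched to titles, and 1 of 32 columns, a tumor whose name matched no title, was not used.

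Counts were analysed in R 4.3.3 with edgeR 4.0.16 (TMM, filterByExpr, quasi-likelihood F-test, Benjamini-Hochberg over all tested transcripts, threshold 0.05), fitted on the 11 tumors alone. Printed CPM use TMM factors over 31 libraries. Log2 CPM used a prior count of 2. The SE of an edgeR log2 fold change is its size divided by the square root of the F statistic. It was thus derived from the test and not estimated apart from it. Markers were 50 transcripts per tissue with edgeR adjusted p under 0.05 and a mean of at least 50 CPM in 11960 and 11963. DESeq2 1.42.0 and limma 3.58.1 gave alternatives. Figures used matplotlib 3.10.9. P-values of the tumor and of the skin comparison rest on the spread between fish. For the interaction, the block fit rests on how the difference of tumor and skin varied between fish. The interaction fits without the block treat the tumor and skin of a fish as separate units.

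The named rows are Xmrk, FGFR4, every tested symbol, and 2 identifiers on each side by smallest p, since 0 passed. The members, the 16 gene lists and the tests were chosen with earlier results of these data known. The fish letters of 11935 and 11949 name different animals and pair nothing between them. Tumor and skin are paired by fish through the titles.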

Additional observations from a re-analysis of the deposited data

Results flagged for a closer look

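In 28 measures each, the 8 tumors of 11949 were searched for 1 that lay far from the rest. There were 3 such cases, and about 1.4 would arise by chance. The total count of the tumor of 11949f was 2578877, and the next lowest was 4938279. For PRKCE_1of2 the tumor of 11949c was low, at 10.67 CPM, with the next lowest at 22.17 CPM. For ENSXMAT00000000100 the tumor of 11949a was high, at 35.39 CPM, with the next highest at 27.16 CPM. Groups of 3, as in 11935, were not searched.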

How the results depend on the processing

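The alternative with the melanoma marker sum as covariate was chosen after the data were seen. The count of 0 between the tumors was 88 with DESeq2, 1 with the spread estimated over all skin and tumor libraries, 1 with the melanoma marker covariate and 0 to 2 when single tumors were left out (2 without 11949l, 1 each without 11935d and 11935e). In skin it was 12 with DESeq2 and 0 without single libraries. For the interaction it was 0 to 1 when single fish were left out (1 without 11949c), and 0 in the 10 fish with both tissues, with the replicate block and without it. Xmrk kept a negative log2 fold change, -1.90 to -0.25, and an adjusted p above 0.05 in 20 alternatives. Between the tumors, the single call with the spread over all libraries, with the melanoma marker covariate and without 11935d was ENSXMAT00000006736 each time. These fits share tumors, so its return is no independent support.

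For 12 of the 21 symbols the estimate changed sign under an alternative, among them PRKCB, at -0.67 in the main comparison, and the cause was not tested. With the melanoma marker covariate CRY2 stood at -0.33, CSNK1A1 at 0.01, FGFR4 at -0.25, GSTM3 at 0.51, HSP90AB1 at -0.03, LDHB_1of2 at 0.02, MAPK14_2of2 at -0.11, PMEPA1 at 0.56 and PRKCE_1of2 at 0.10. With the skin marker covariate CUL4B stood at -0.09, HSP90AB1 at -0.19, OXR1 at 0.27, PMEPA1 at 0.37, PRKCB at 1.50 and PRKCE_1of2 at 0.01. CUL4B and HSP90AB1 stood at -0.02 with RLE size factors and with DESeq2, at -0.01 and -0.00 without the low-count filter, and at -0.00 with the spread over all libraries. Leaving out single tumors gave -0.18 to 0.19 for CRY2, -0.05 to 0.08 for CUL4B, -0.06 to 0.47 for FGFR4, -1.86 to 0.34 for GSTM3, -0.08 to 0.07 for HSP90AB1, -0.11 to 0.17 for MAPK14_2of2 and -1.30 to 0.24 for PMEPA1.

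The numbers of 3 and 8 tumors limit the precision: a median SE of 0.478 on the log2 scale leaves most differences under 2-fold inside 2 SE. Depth limits rows with few counts, such as PMEPA1.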
